A study of Mus musculus with 2 samples.

Results

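The sites described here are the LRPPRC PAR-CLIP sites that fell in exons of nuclear protein-coding genes of mouse embryonic fibroblasts (MEFs). A site was taken when it lay outside the mitochondrial genome, overlapped an exon of a GENCODE vM21 protein-coding gene by at least 1 nt on the same strand, and overlapped no small RNA gene on that strand. Sites in the gene models Gm10800, Gm21738 and Gm26870 were left out. These criteria gave 33 of the 552 sites in the list, in 30 genes, which is 0.137% of the 21938 protein-coding genes annotated outside the mitochondrial genome. Members were chosen by the called positions of the sites, so the presence of a site in these exons is a description and not a result.

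The series comprised 1 experimental and 1 control sample, both of MEFs from Lrpprc–FLAG transgenic mice. Both were given doxycycline at 2 μg/ml for 72 h. The paper names doxycycline as the inducer of the tagged protein, but describes a doxycycline-responsive construct only for its human HeLa cells. The labels do not say in what the control differed, and the control was not analysed here, so background in the pull-down was not measured. The paper reports that its control PAR-CLIP showed no specific mitochondrial alignment, and that far fewer control reads mapped than in the LRPPRC library. MEFs are connective-tissue cells grown from embryos, and FLAG is a short peptide tag recognised by an antibody. The bait was thus a tagged protein from a transgene, and its level and its response to doxycycline were not measured here.

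LRPPRC is a protein of the pentatricopeptide repeat family, in which tandem helical repeats bind single-stranded RNA. It is known mainly as a mitochondrial protein that forms a complex with SLIRP and keeps mitochondrial mRNAs stable and polyadenylated. In PAR-CLIP, cells incorporate 4-thiouridine into new RNA, ultraviolet light crosslinks it to bound protein, and the crosslinked U is read as C in the sequenced fragments. A site is therefore a stretch of RNA around such changes, and a stretch without U cannot be called.

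The list gave the position, width and strand of each site and no read count, so depth per site is unknown and members could not be ranked by strength. All values come from 1 library. No test was run, and no spread between replicates can be given. Intervals are 95% Wilson intervals, which cover counting error and treat sites or bases as independent, although bases of 1 site are not.

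The members fell into 4 groups, set up after their sequences had been seen. There were 16 sites in 16 genes whose sequence was mostly outside annotated repeats. Another 7 sites in 7 genes had at least 50% of their width in soft-masked letters, by which the reference marks repeats and low-complexity sequence. There were 2 sites in Lars2. The remaining 8 sites lay in 6 gene models without a named product (Gm10801, Gm10722, Gm11168, Gm10719, Gm10718 and Gm10717) that carry copies of the same repeat.

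The sequences of some sites of these groups are shown first, to let their letters be seen beside the values. They include extremes, such as the lowest (Fn1, 12.7%) and highest (Tpt1, 35.2%) U shares of the mostly unmasked sites. The soft-masked sites of Jmjd6 and A630089N07Rik are not shown, so the stretches do not represent the groups. Each is a 30-nt stretch in mm10, written 5′ to 3′ on the strand of the site. Capital T marks the bases read as U in the RNA, and for each site with capital T the stretch with the most T was taken. In the second Lars2 stretch the capitals mark a 9-nt word instead.
Setd7 (chr3:51518544-51518573, minus strand): TcccTcTTccTTTcccTcccTcTTccTTTT
Nfat5 (chr8:107374649-107374678, plus strand): cTcTacaTccTTTccTTccTcTcTcccTTT
Fam171a1 (chr2:3227021-3227050, plus strand): TTTcTcTcTcTcTcTcTcTcTcTcTcTcTT
Polr2a (chr11:69735435-69735464, minus strand): cTTccTacTccccaaccTcTccaTcTTacT
Tmem47 (chrX:81094670-81094699, plus strand): acacaaaacaTacacTacacacaccacaTT
Gm10719 (chr9:3020156-3020185, plus strand): TgTTTcTcaTTTTccaTgaTTTTcagTTTT
Tpt1 (chr14:75848192-75848221, plus strand): TTgagcTTTTaTTTTgaccgTgaTTTaTTT
Fn1 (chr1:71606814-71606843, minus strand): TcacTgTgcccggaagcaagTccacagcca
Thbs1 (chr2:118122927-118122956, plus strand): gaTaTTgaTgacaTcTgTccTgagaaTTTT
Acta2 (chr19:34245039-34245068, minus strand): cTgTgcTaTgTagcTcTggacTTTgaaaaT
Lars2, first site (chr9:123461902-123461931, plus strand): ccTcacgaTccTTcTgaccTTTTgggTTTT
Lars2, second site (chr9:123462160-123462189, plus strand): atcctgctcaGTACGAGAGgaaccgcagct
The stretches of Setd7, Nfat5 and Fam171a1 are almost wholly C and U, Polr2a is mostly C and U with some A, Tmem47 is almost wholly A and C with 4 U in its stretch, and Gm10719 holds 18 U of 30. Fn1, with 4 U, has a mixed sequence of low U content, and Tpt1, with 17 U, one of high U content.

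Nuclear exon sites were in coding sequence and 3′ UTRs. Of the 33 sites, 18 were in coding sequence, 13 in 3′ UTRs and 0 in 5′ UTRs. A count of 0 of 33 sites allows a share of up to 9.09%, taken as 3 counts of the total, for counting error only. The 8 sites in repetitive gene models lay on transcripts annotated without UTRs, so they say nothing on this share. For the other 25 sites the limit is wider. The sites of Jmjd6, which encodes a JmjC-domain hydroxylase, and of Frmd4a, which encodes a FERM-domain scaffold protein, lay only in exons of retained-intron transcripts of these genes. By bases, 55.4% of the 2863 exonic bases were coding (53.6 to 57.2%), 39.8% were 3′ UTR (38 to 41.6%), 0% were 5′ UTR and 4.75% were in other exons. Over the exons of all protein-coding genes, 37.6% of bases were coding, 34.7% were 3′ UTR, 7.42% were 5′ UTR and 20.3% were in other exons.

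The balance between coding sequence and 3′ UTR turned with the repetitive gene models, whose annotated exons are coding throughout. With these 8 sites left out, 37.9% of 2056 exonic bases were coding and 55.4% were 3′ UTR. Among the 16 sites in mostly unmasked sequence, 10 were coding and 6 were in 3′ UTRs, and 61.1% of their exonic bases were coding. Of the 7 soft-masked sites, 0 were coding, 5 were in 3′ UTRs and 2 in retained-intron exons. The share of coding sequence in the list of members thus depended on which of these groups was counted.

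**Figure D1:**
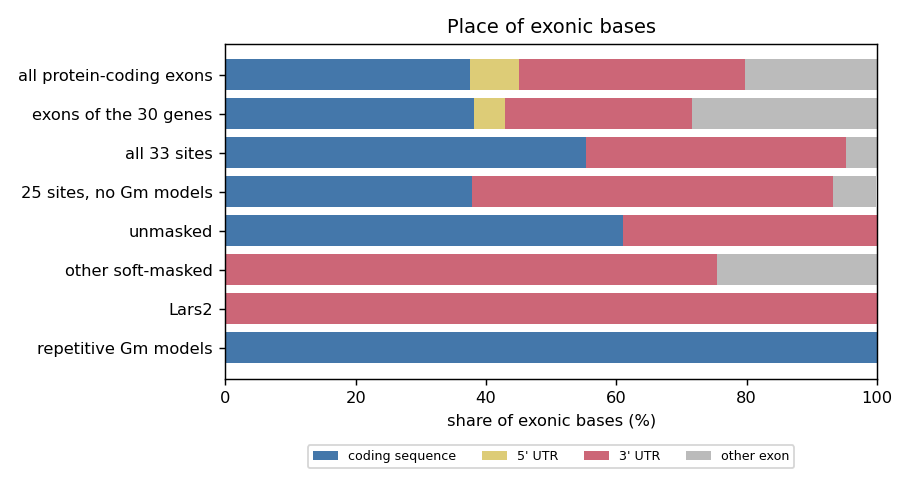
Share of exonic bases (horizontal axis, %) in coding sequence, 5′ UTR, 3′ UTR and other exons, for all protein-coding exons, the exons of the 30 genes, and the members as a whole and by group. Coding bases made up 55.4% of the exonic bases of all members and 37.9% without the repetitive Gm gene models. No bar of sites holds a 5′ UTR segment, and site bases outside exons are not counted.

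Genes of the extracellular matrix and cell surface were represented in coding sequence and in a 3′ UTR. Fn1 encodes fibronectin, the matrix glycoprotein to which fibroblasts attach. Its site (chr1:71606773-71606843, minus strand) was 71 nt wide, all coding, in exon 30 of 46. It began 4750 nt after the start codon, ended 2613 nt before the end of the coding sequence and 3301 nt before the 3′ end of the transcript, and lay 24 nt from the nearest splice site. Its bases were 12.7% U, 35.2% A, 36.6% C and 15.5% G, against 23.8% U over all exons of the gene.

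Thbs1 encodes thrombospondin 1, a secreted glycoprotein that binds matrix and cell surfaces. Its 75-nt site (chr2:118122913-118122987, plus strand) was coding, in exon 18 of 22, 2809 nt from the start codon and 632 nt before the end of the coding sequence. It lay 39 nt from the nearest splice site and 2736 nt from the 3′ end. Its U share was 29.3%, against 24.4% over the gene, with 30.7% A, 21.3% C and 18.7% G.

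Bgn encodes biglycan, a small leucine-rich proteoglycan of connective tissue. The Bgn site (chrX:73495515-73495608, plus strand) was 94 nt wide and lay in the 3′ UTR, in the last of 8 exons. It began 719 nt after the stop codon, 1828 nt after the start codon and 916 nt from the last splice site, and ended 325 nt before the 3′ end. Its bases were 25.5% U, 22.3% A, 34% C and 18.1% G, and the gene as a whole had 25.3% U. Gpc4, which encodes the cell-surface proteoglycan glypican 4, had a 75-nt coding site with 20% U (chrX:52062944-52063018, minus strand). Together, 3 of 63 genes in a list of fibroblast matrix and secreted proteins had a site, 4.76% (1.63 to 13.1%), beside 0.137% of all protein-coding genes. The list was chosen with earlier results of these data known, and the expression of these genes was not measured here.

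Acta2 encodes smooth-muscle alpha-actin, made also by activated fibroblasts. Its site (chr19:34244967-34245107, minus strand) was 141 nt wide, of which 137 nt were coding in exon 7 of 9. The other 4 nt lay beyond the 5′ edge of that exon, at positions of the intron in the genome. Reads were aligned to the genome and not to spliced transcripts, and whether these 4 nt reflect unspliced RNA was not tested. The exonic bases began 616 nt from the start codon and ended 381 nt before the end of the coding sequence and 958 nt before the 3′ end. Its bases were 20.6% U, 23.4% A, 27% C and 29.1% G. It was the only one of the 16 mostly unmasked sites to pass an exon edge. Acta2 was the 1 gene with a site in a list of 43 cytoskeletal genes, 2.33% (0.412 to 12.1%), beside 0.137% of all protein-coding genes. A single gene is not read as a result about the class. That list did not hold Capza2, which encodes a subunit of the actin-capping protein. Capza2 had a 60-nt site in its 3′ UTR (chr6:17666607-17666666, plus strand) with 28.3% U.

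Several mostly unmasked sites lay in genes for nuclear proteins, which are put side by side here for reading and were not tested as a group. Polr2a encodes the largest subunit of RNA polymerase II. Its 47-nt site (chr11:69735427-69735473, minus strand), the narrowest of the 33, was in the last of 29 exons, the coding exon that holds the C-terminal heptad repeats of the protein. It began 4849 nt after the start codon and ended 1017 nt before the end of the coding sequence, and it held 51.1% C, 29.8% U, 19.1% A and 0% G.

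Rbm33 encodes an RNA-binding protein and was the 1 gene with a site among 144 nuclear RNA-binding and splicing genes, 0.694% (0.123 to 3.83%). That interval includes the 0.137% of all protein-coding genes, so the count is not read as a result about the class. Its 75-nt coding site (chr5:28387660-28387734, plus strand) lay in exon 12 of 19, 13 nt from the nearest splice site, 1556 nt from the start codon, 2065 nt before the end of the coding sequence and 7688 nt from the 3′ end. It held 24% U, including a run of 7 U, with 20% A, 40% C and 16% G. Ppp1r10 encodes PNUTS, a nuclear regulatory subunit of protein phosphatase 1. The Ppp1r10 site (chr17:35928405-35928479, plus strand) was 75 nt of coding sequence in exon 13 of 20, 2 nt from the nearest splice site. It lay 1104 nt from the start codon, 1488 nt before the end of the coding sequence and 2513 nt from the 3′ end. With 16% U it had the lowest share but 2 of all members, beside 24% A, 30.7% C and 29.3% G.

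Kmt2b, which encodes a histone H3 lysine 4 methyltransferase, had a 75-nt coding site with 18.7% U in exon 3 of 37 (chr7:30585327-30585401, minus strand). Senp7, which encodes a SUMO protease, had a 75-nt site of 34.7% U that began 165 nt after the stop codon (chr16:56188537-56188611, plus strand).

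The other mostly unmasked sites were in genes of varied function. Phtf2 had a 75-nt coding site of 26.7% U in exon 6 of 18 (chr5:20803249-20803323, minus strand). Tpt1 encodes the translationally controlled tumour protein, an abundant cytoplasmic protein. Its 125-nt site (chr14:75848156-75848280, plus strand) began 55 nt after the stop codon and had 35.2% U, the highest share in the group, against 26.3% over the gene. Gid4, which encodes the substrate receptor of the CTLH ubiquitin ligase, had a 75-nt site of 20% U, 2748 nt after the stop codon (chr11:60444790-60444864, plus strand). Mocs3 encodes an enzyme of molybdenum cofactor synthesis and tRNA thiolation. Its 68-nt site had 29.4% U and began 403 nt after the stop codon (chr2:168232420-168232487, plus strand). Olfr33 encodes an olfactory receptor, a class known for its expression in nasal sensory neurons. Its 75-nt coding site had 33.3% U (chr7:102713852-102713926, minus strand).

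Along the spliced transcripts, these 16 sites were widely spread. The midpoints of the 10 coding sites were at 17.6 to 82.4% of the coding sequence, with a median of 49.8%. The 6 sites in 3′ UTRs began 55 to 2748 nt after the stop codon, and their midpoints were at 12.3 to 86.1% of the 3′ UTR. The last exon held 8 of the 16.

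**Figure D2:**
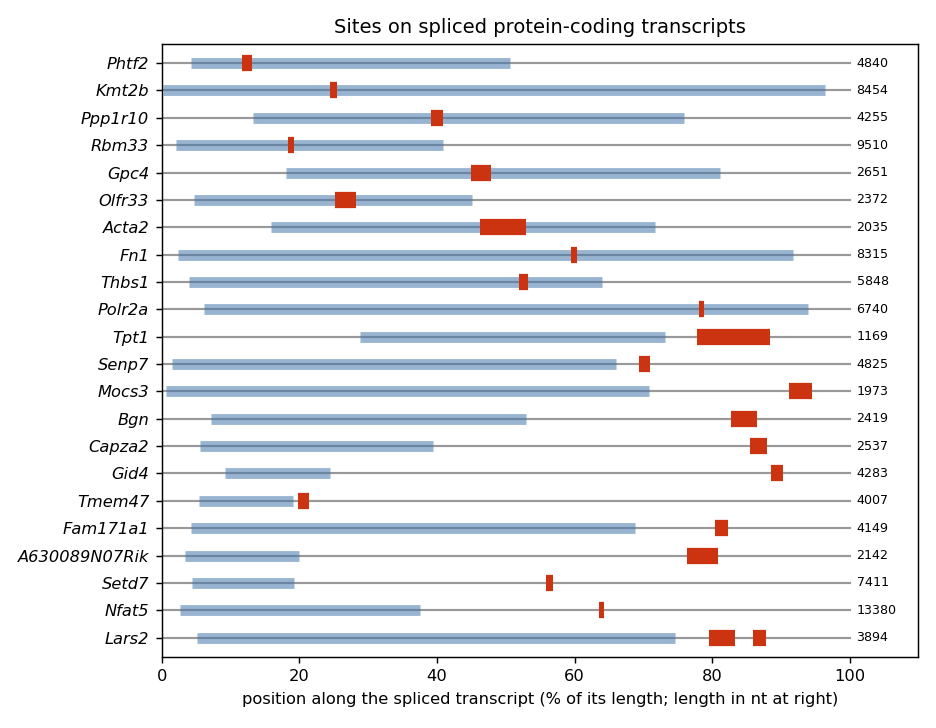
Sites (red) on the spliced transcript chosen for each gene, with the coding sequence as a blue bar and the UTRs as a grey line; the horizontal axis is the position in % of transcript length, and the length in nt is at the right. The repetitive Gm gene models and the 2 genes with sites only in retained-intron exons are left out. Coding sites are scattered from Phtf2, at 17.6% of the coding sequence, to Polr2a, at 82.4%.

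The 7 soft-masked sites were mostly low-complexity sequence of a pair of bases. Setd7, which encodes a protein lysine methyltransferase, had a 75-nt site of which 97.3% was C or U (chr3:51518518-51518592, minus strand). Nfat5, which encodes a transcription factor of the response to osmotic stress, had a 108-nt site with 94.4% C or U (chr8:107374634-107374741, plus strand). Fam171a1, which encodes a membrane protein, had a 76-nt site with 92.1% C or U (chr2:3226995-3227070, plus strand). All 3 sites lay in 3′ UTRs and held 0% G. The Polr2a site, though unmasked, had 80.9% C or U. Over all sites in introns of nuclear protein-coding genes, 31.8% of bases were C and 27.6% U, and over the mostly unmasked members 53.1% were C or U.

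A and C made up the other low-complexity sites. Tmem47, which encodes a membrane protein of cell junctions, had the lowest U share of all members. Its 66-nt site (chrX:81094660-81094725, plus strand) began 30 nt after the stop codon, 575 nt from the start codon and 208 nt from the last splice site, and ended 3147 nt before the 3′ end. It held 6.06% U (4 bases), 50% A, 42.4% C and 1.52% G, while the exons of the gene held 32.9% U. The Frmd4a site (61 nt, chr2:4432237-4432297, plus strand) was 80.3% A or C, with 19.7% U. The Jmjd6 site (75 nt, chr11:116838391-116838465, minus strand) contained a run of 10 U, the longest among members, in 30.7% U overall. In A630089N07Rik, a site of 95 nt in the 3′ UTR had 24.2% U and was soft-masked over 100% of its width (chr16:98062923-98063017, minus strand).

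The predicted structure of these low-complexity sites was almost open. The mean probability of being unpaired was predicted by RNAplfold on the joined exons of a transcript. It was 0.992 in the Setd7 site, 0.989 in Nfat5, 0.979 in Tmem47, 0.999 in Frmd4a and 0.889 in Fam171a1. Their whole transcripts were at 0.467 to 0.554. The highest of these, Frmd4a, was a retained-intron transcript and not a spliced mRNA. The Polr2a site was at 0.987, with its transcript at 0.515. The prediction is made from the same letters as the base content, so the 2 are not separate measures.

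Over all mostly unmasked sites the values lay on both sides of the transcript. Of the 16, 8 were above their transcript and 8 below, with a median of 0.469 in the sites and 0.464 in the transcripts. Fn1 was at 0.662 against 0.462, whereas Ppp1r10 was at 0.402 against 0.46. Of the 8 sites in repetitive gene models, 3 were above their transcript. Only the exonic bases of a site enter its value. Among these 3, they were 33 of 184 nt in Gm10722 and 25 of 126 nt in Gm10717.

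**Figure D3:**
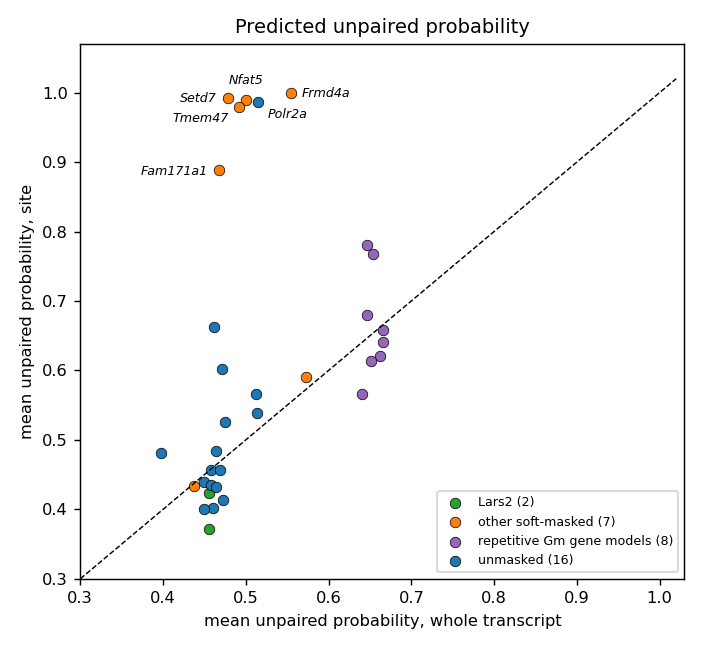
Mean predicted unpaired probability of the exonic bases of each site (vertical axis) against that of its whole transcript (horizontal axis). The transcripts of Jmjd6 and Frmd4a were retained-intron transcripts. Points are coloured by group, with a dashed line of equality. Polr2a and 5 soft-masked sites lie at 0.889 to 0.999, far above the line, and the 15 other mostly unmasked sites lie at 0.4 to 0.662.

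Lars2 held the only pair of sites outside the repetitive gene models. Lars2 encodes the mitochondrial leucyl-tRNA synthetase, a nuclear-encoded enzyme that charges tRNA in mitochondria. Its first site (chr9:123461869-123462015, plus strand) was 147 nt wide and its second (chr9:123462117-123462192, plus strand) 76 nt, and both lay in the 3′ UTR in the last of 21 exons. They began 191 and 439 nt after the stop codon, or 2899 and 3147 nt after the start codon, and 370 and 618 nt from the last splice site. They ended 649 and 472 nt before the 3′ end of the transcript. The first had 27.9% U, 23.1% A, 21.8% C and 27.2% G, and the second 28.9% U, 22.4% A, 22.4% C and 26.3% G.

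A further site of 178 nt lay on the opposite strand of Lars2 (chr9:123462015-123462192) and covered the whole of the second site. Neither Lars2 site was soft-masked (0%), but each had 2 other copies in the genome at 90% identity or more over 90% or more of its width. Copies of the first lay in the gene Gphn at 97.3% identity (chr12:78351007-78351153, plus strand) and between genes on chromosome 17 at 90.4%. Copies of the second lay in Cd44 at 98.6% (chr2:102829385-102829455, minus strand) and in the antisense gene Gm15564 at 95.9% (chr16:35981655-35981727, minus strand).

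Of these 4 copies, all but that on chromosome 17 lay at listed sites. The copy in Gphn lay at 3 listed sites, 2 on the plus strand (227 and 75 nt) and 1 on the minus strand (119 nt), and the copies in Cd44 and Gm15564 each lay at 1, of 83 and 161 nt. With shorter matches counted, of 85% identity or more over 30% or more of the width, 9 listed sites fell on copies of the first Lars2 site and 3 on copies of the second. Of the other members outside the repetitive gene models, Fam171a1 (9), Frmd4a (4), Tmem47 (4) and Nfat5 (2), all low-complexity sequences, had such sites, and the 16 mostly unmasked members had 0.

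The 9-nt word in capitals in the second Lars2 stretch, GTACGAGAG, has the letters of the sarcin–ricin loop, a conserved loop of the large cytoplasmic ribosomal RNA. It was found, on either strand, in 4 of the 540 sites on assembled chromosomes (0.741%). Besides the second Lars2 site these were the site opposite to it and sites at chr1:100180158-100180262 and chr16:35981653-35981813, both on the minus strand. Neither Lars2 site matched the ribosomal RNA locus annotated on chromosome 17 at 85% identity or more over 30% or more of its width. That locus was not searched for the word, and a full 28S rRNA sequence was not used here, so the lack of a match decides nothing. Whether reads from ribosomal RNA were placed at Lars2 was not tested.

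**Figure D4:**
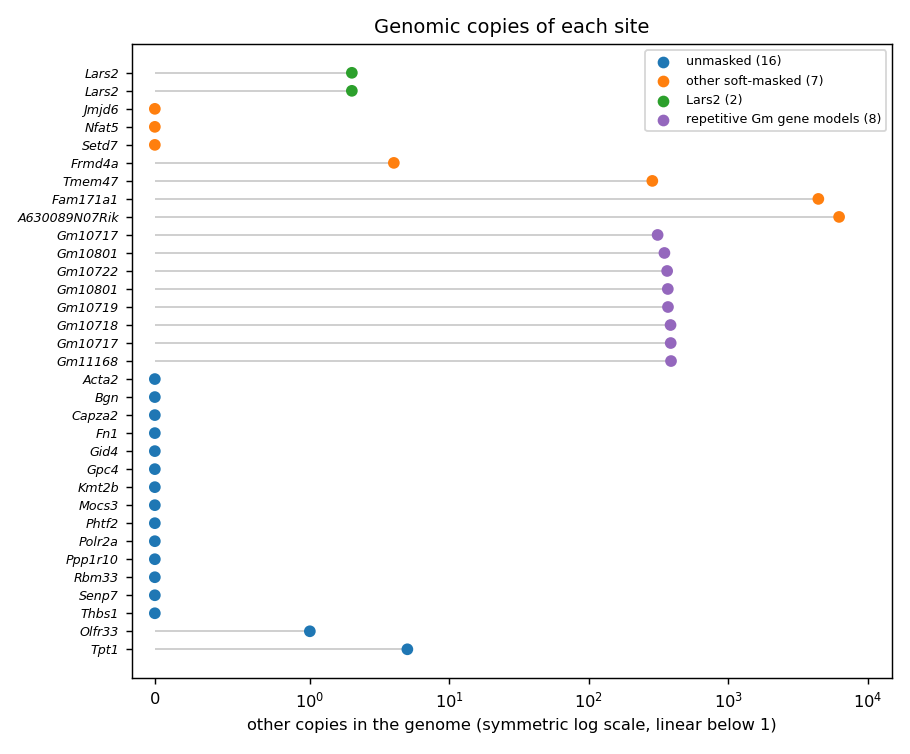
Number of other copies of each member in the genome (horizontal axis, symmetric log scale) at 90% identity or more over 90% or more of the width, coloured by group. Of the mostly unmasked sites 14 of 16 have 0 copies, the Lars2 sites 2 each, and the repetitive Gm gene models 311 to 388.

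Most of the mostly unmasked sites were unique in the genome. Of these 16 sites, 14 had no other copy at that limit. Tpt1 had 5, of which 1, on chromosome 6 (chr6:99877637-99877761, minus strand), was identical over all 125 nt and lay in no annotated gene. Olfr33 had 1 copy, at 95.9% identity in the neighbouring receptor gene Olfr559. The alignment reported 1 position for each read, so reads of Tpt1 and of its identical copy cannot be told apart. Of the soft-masked sites, A630089N07Rik had 6218 copies, Fam171a1 4415, Tmem47 285 and Frmd4a 4, and Jmjd6, Setd7 and Nfat5 had 0. No member had a copy in the mitochondrial genome (0) or in a small RNA gene (0).

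The 8 sites in repetitive gene models held 44 to 46.8% U, and their widths ran from 94 to 233 nt around a median of 126.5 nt. Gm10801 on chromosome 2 had a site of 233 nt (chr2:98662256-98662488, plus strand), the widest of all members, with 46.4% U, 18% A, 22.3% C and 13.3% G. It lay wholly in exon 1 of 4, from 19 nt after the start codon to 252 nt before the end of the coding sequence, 19 nt from the nearest exon edge. A second Gm10801 site of 94 nt (chr2:98663816-98663909, plus strand) had 46.8% U, the highest of all members, with 18.1% A, 24.5% C and 10.6% G. It began 301 nt after the start codon, ended 123 nt before the end of the coding sequence and passed the 3′ edge of exon 3 by 14 nt.

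The annotated transcripts of these gene models have no UTR, so the end of the coding sequence is also their 3′ end. The other 6 sites lay within a short stretch of chromosome 9, all on the plus strand and all opposite the non-coding gene Gm26870. Gm10722 had a site of 184 nt (chr9:3002048-3002231) with 44% U, 19.6% A, 22.8% C and 13.6% G, of which 33 nt were exonic, 519 nt from the start codon and 99 nt from the end of the coding sequence. Gm10719 had a site of 173 nt (chr9:3020150-3020322) with 44.5% U, 19.1% A, 24.3% C and 12.1% G, of which 160 nt were exonic, at the first base of the coding sequence (0 nt after its start) and 521 nt from its end. Both sites crossed exon edges. Gm10717 had 2 sites (chr9:3028503-3028628 and chr9:3028775-3028901) of 126 and 127 nt, with 44.4 and 46.5% U and with 25 and 94 nt in exons. They began 556 and 348 nt after the start codon and ended 100 and 233 nt before the end of the coding sequence, each in a different transcript of the gene, and both passed an exon edge. Gm11168 (100 nt, 45% U, chr9:3006422-3006521) and Gm10718 (102 nt, 44.1% U, chr9:3024392-3024493) had 1 site each.

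These sites were copies of the same repeat rather than separate sequences. Words of 14 nt were shared by 27 of the 28 pairs of them, and a word of 30 nt was shared by 5 of them. In the same count, 0 of 120 pairs of mostly unmasked sites shared a word. Each repetitive site had 311 to 388 other copies in the genome, and the gene models as a whole held 46.2 to 47.4% U, slightly above the sites. Counting them as 8 sites or 6 genes therefore counts a single repeat several times. Of their bases, 332 lay outside exons, out of 336 for all members.

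Over all members, the U share was 33.5% (31.9 to 35.2%), against 26.3% over all protein-coding exons, 29.8% over the 48 mitochondrial sites and 27.6% over the 123 intron sites. This value rested on the repetitive gene models, at 45.2% U. Without them the share was 27% (25.2 to 29%), and in the mostly unmasked sites it was 25.3% (23 to 27.7%), with single sites from 12.7 to 35.2%. The mostly unmasked sites were above their own gene in 7 of 16 cases, and the members' genes as a whole in 13 of 30. The intervals for the members without the repetitive gene models and for the mostly unmasked sites both included the 26.3% of exons at large. A call requires at least some U, and its part in these values was not tested.

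The nuclear exon sites had the same median width as nuclear intron sites and a lower one than mitochondrial sites. Widths of the members ran from 47 to 233 nt, and their median was 75 nt (75 to 100 nt). Intron sites had the same median, 75 nt (75 to 77 nt), and mitochondrial sites had a median of 147.5 nt (117 to 194 nt) and reached 688 nt. A width of exactly 75 nt was found in 11 of 33 members (33.3%, 19.8 to 50.4%), all outside Lars2 and the repetitive gene models, and in 9 of the 16 mostly unmasked sites (56.2%, 33.2 to 76.9%). It was found in 37 of 123 intron sites (30.1%, 22.7 to 38.7%) and in 2 of 48 mitochondrial sites (4.17%, 1.15 to 14%). The 9 mostly unmasked sites of this width were those of Gid4, Senp7, Ppp1r10, Thbs1, Phtf2, Rbm33, Kmt2b, Olfr33 and Gpc4, and the other 2 were Jmjd6 and Setd7. The read length and the number of reads behind these sites are not in the list, and their part in this width was not tested.

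**Figure D5:**
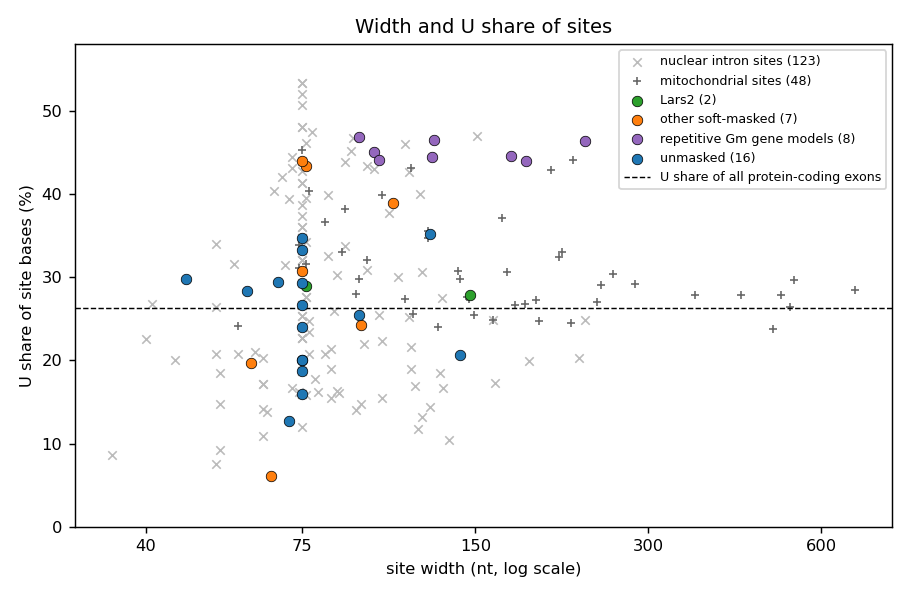
U share of site bases (vertical axis, %) against site width (horizontal axis, nt, log scale) for the 33 members by group, the 48 mitochondrial sites and the 123 nuclear intron sites, with the U share of all protein-coding exons as a dashed line. Points stack at 75 nt for members and intron sites, the repetitive Gm gene models sit together at 44 to 46.8% U, and mitochondrial sites extend to 688 nt.

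Many members were mostly soft-masked, in part through the repetitive gene models, and no mitochondrial site was. Soft-masked letters covered at least 50% of 15 of 33 members (45.5%, 29.8 to 62%), 75 of 123 intron sites (61%, 52.1 to 69.1%) and 0 of 48 mitochondrial sites. Without the repetitive gene models, 7 of 25 members were mostly soft-masked (28%, 14.3 to 47.6%). The soft-masked share of the mitochondrial genome itself was not measured, so the count of 0 has no background here. Over all protein-coding exons, 13.6% of bases were soft-masked, which is a share of bases and cannot be set directly against these shares of sites. The members were otherwise isolated. No mostly unmasked or soft-masked member had another site within 1000 nt (0 sites), whereas both Lars2 sites and 6 of the 8 in repetitive gene models did.

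Most of the abundant or mitochondrial gene classes looked up among the members had no site. Bounds are the upper ends of the Wilson intervals. The count was 0 of 85 genes for cytosolic ribosomal proteins (up to 4.32%), 0 of 67 for replication-dependent histones (up to 5.42%), 0 of 68 for translation factors (up to 5.35%) and 0 of 83 for chaperones (up to 4.42%). It was 0 of 86 for nuclear-encoded subunits of oxidative phosphorylation (up to 4.28%), 0 of 78 for mitochondrial ribosomal proteins (up to 4.69%) and 0 of 15 for PPR proteins and enzymes of mitochondrial RNA metabolism (up to 20.4%). LRPPRC and its partner SLIRP had 0 sites in their own mRNAs. At a background of 0.137% of genes, lists of this size would hold few sites in any case, and these counts of 0 do not show an absence. Among 11 fibroblast marker genes Fn1 had a site, and among 10 markers of other cell types 0 had. A list of sites gives no expression level, so this does not check the cell type.

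The rule takes any site with at least 1 exonic base. The smallest exonic overlaps inside it were 25 of 126 nt in Gm10717 and 33 of 184 nt in Gm10722, and 26 of 33 members lay wholly in exons. The nearest sites outside it were 7 nt from an exon of Ubap2l, 101 nt from Gm10801 and 122 nt from Gm10717. The 5 sites left out with Gm10800 (2 sites) and Gm21738 (3 sites) and the 10 removed for a small RNA gene on the same strand complete the 48 nuclear sites that overlapped a protein-coding exon.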

How the data were processed

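Sites of 1 experimental PAR-CLIP library of MEFs were analysed. Per the labels and the published methods, the authors collapsed PCR duplicates by unique molecular identifiers, trimmed reads with cutadapt 1.10, aligned them with Bowtie 1.12 to mm10 with nuclear copies of mitochondrial DNA masked, reporting 1 position per read, and called crosslinked regions with BMix. The deposited score was 0 in every line, so no coverage per site was available and depth is unknown. Masking and single reported positions affect where repeated sequence is placed.

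Starts were converted to 1-based positions. Exons came from GENCODE vM21, and each exonic base was given a single place in the order coding sequence (with the stop codon), 5′ UTR, 3′ UTR, other exon. For distances and folding, the protein_coding transcript with the largest overlap was used, and for Jmjd6 and Frmd4a a retained-intron transcript. Bases and soft-masked letters were read from the GRCm38.p6 assembly of RefSeq. Copies were found with blastn 2.17.0, and unpaired probabilities with RNAplfold 2.7.2 (windows of 150 nt, pairs up to 100 nt apart). Other steps used Python 3.11.15, NumPy 2.4.6, SciPy 1.17.1 and pandas 2.3.3. The placing of bases was tested on 200 simulated sites, of which 0 were placed wrongly. Of the member genes all were named, and full positions were given for the 5 widest sites, genes with at least 2 sites, genes of the lists and the 3 highest and 3 lowest U shares. The members and lists were chosen with earlier results of these data known. Alternatives covered the exon overlap, transcript type, width, strand, merging, masking, excluded genes, order of places and weighting.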

Additional observations from a re-analysis of the deposited data

How the results depend on the processing

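Alternatives were compared with the value as reported, by its 95% interval or, for the number of sites, by a factor of 1.5. Of 62 alternative values, 44 stayed within these limits and 18 moved. For shares of bases the interval treats bases of 1 site as independent and is too narrow, so small shifts were also counted as moved. No paired analysis was possible because the list comes from 1 library. Leaving out mostly soft-masked members gave 18 sites, 0.0775% of genes and, by construction, 0% mostly soft-masked sites. With exons of protein_coding transcripts only, the coding share was 58.2% and the 3′ UTR share 41.8%, and with sites of at least 75 nt they were 59% and 38%, with 35.2% U. The mean of the U share per site was 31.2%. Chosen after seeing the data, leaving out the repetitive Gm gene models gave a coding share of 37.9%, a 3′ UTR share of 55.4%, 27% U, 28% mostly soft-masked and 96% wholly exonic sites. Leaving out Lars2 as well gave 42.6% coding, 50% 3′ UTR, 26.9% U and 95.7% wholly exonic sites. The median width stayed within its interval under every alternative run. A base outside every site may be unbound or too thinly read.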
